A study of Lactuca sativa with 53 samples.

Results

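LsERF073 is a gene of lettuce (Lactuca sativa) listed as Lsat_1_v5_gn_8_13141.1, and it was taken by its row in both deposited value tables. It is 1 of 23292 genes listed in the table of the cultivar Salinas and 1 of 23933 in the table of the cultivars PI284702 and UC96US23. The gene was chosen by measured values, namely its high expression late in salt stress in the Salinas libraries, so its salt values are given first as a description. It lies on linkage group 8 of the lettuce genome version 8, from 15916647 to 15917453 on the plus strand, with a single annotated exon of 807 bases.

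RNA was sequenced from leaves, and the sample labels describe the same material as aerial tissue. The plants had been grown on soil at 20 °C and were 18 days old when they were treated. In Salinas, 10 groups of 3 biological replicates were sequenced: an untreated control at 0 h, and plants sampled at 5 h, 24 h and 48 h of salt, heat or drought. Salt plants received 250 mM NaCl, heat plants were moved to 34 °C, and drought plants were left without water once their pots had been drained. In PI284702 and UC96US23, plants at 20 °C (0 h) were compared with plants that had spent 4 h, 24 h or 7 d at 4 °C, with 3 replicates per group, apart from PI284702 at 0 h with 2. All Salinas comparisons with the control share its 3 libraries, and no untreated plants of a later hour were included, so at 5 h the time of day and the treatment cannot be told apart there. The same holds for the cold at 4 h. Plants sampled later had also grown older since the treatment began, by 7 d at the end of the cold. Age and treatment cannot be told apart in those comparisons with 0 h. Plants compared between stresses at the same hour do not have these differences. By the methods of the study, light was dimmer during the stresses than during growth, and dimmest in the cold. Light and treatment therefore cannot be told apart in any comparison with 0 h, be it of salt, heat, drought or cold. No table at hand paired the gene IDs with protein names, so the tissue label was not checked against leaf markers.

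The AP2/ERF family holds plant transcription factors with a DNA-binding domain named after APETALA2, and its DREB subfamily binds the dehydration-responsive element, a short motif in the promoters of many genes induced by water loss and cold. In Arabidopsis, group III contains the CBF/DREB1 proteins, which are best known from cold acclimation, and group IV contains the DREB2 proteins, which are best known from drought, salt and heat. LsERF073 belongs to group IV, and the Arabidopsis protein closest to it in the annotation of the study is DREB2H. The same orthologous group there holds DREB2C, a factor known in Arabidopsis from heat tolerance.

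In the control plants, LsERF073 was at 0.941, 1.08 and 1.73 scaled CPM, which stands for counts per 1000000 reads of a library size that the authors had adjusted per library. At 48 h of salt it was at 19.5, 25.1 and 21.7. At 24 h of salt the replicates were at 4.35, 14.1 and 7.07, and at 5 h they were at 4.22, 3.05 and 3.86. All 9 salt libraries were above all 3 controls. In scaled CPM the salt groups did not overlap with each other, although at 24 h the highest replicate lay far from the lowest. Between 5 h and 24 h this rested on the authors' scaling. As a share of all reads, replicate 1 was lower at 24 h (98 of 21837116) than at 5 h (116 of 23949730).

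Under heat the order of the hours was the opposite. The gene was at 3.63, 2.22 and 3.81 at 5 h, at 2.59, 2.34 and 1.83 at 24 h, and at 0.914, 0.871 and 0.854 at 48 h. In scaled CPM all 3 libraries of heat at 48 h were below all 3 controls, and all libraries of heat at 5 h and 24 h were above them. For heat at 48 h this rested on the authors' scaling. As a share of all reads, replicate 1 was higher in heat at 48 h (26 of 23471082) than in the control (21 of 19144717). Under drought LsERF073 was at 1.24, 1.47 and 1.77 at 5 h and at 1.63, 1.52 and 1.41 at 24 h, both overlapping with the control. At 48 h of drought it was at 2.62, 3.48 and 4.19, where all 3 libraries were above the control.

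**Figure D1:**
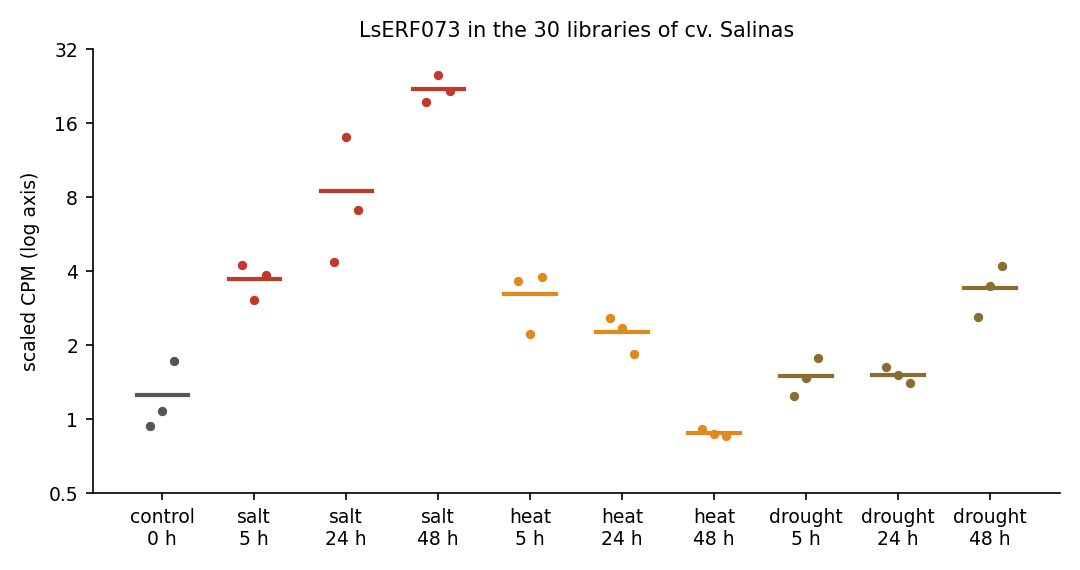
Level of LsERF073 in each of the 30 Salinas libraries, in scaled CPM on a log axis, with a bar at the group mean. Salt climbed to between 19.5 and 25.1 at 48 h, heat ended between 0.854 and 0.914, and the drought libraries stood above the control range at 48 h.

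The order of the group means was salt at 48 h (22.1 ± 2.82, SD, n = 3), salt at 24 h (8.51 ± 5.04), salt at 5 h (3.71 ± 0.597), drought at 48 h (3.43 ± 0.787), heat at 5 h (3.22 ± 0.870), heat at 24 h (2.25 ± 0.385), drought at 24 h (1.52 ± 0.108), drought at 5 h (1.49 ± 0.267), control (1.25 ± 0.420) and heat at 48 h (0.880 ± 0.031). Neighbours in this order overlapped from salt at 5 h down to heat at 24 h, and again from drought at 24 h down to the control. In the control the mean stood above that of 12.2% of the tested genes, and at 48 h of salt above that of 60.3%. The lowest groups rest on few reads, with 24 to 26 reads per library in heat at 48 h and 21 to 41 in the control, against 382 to 417 at 48 h of salt. In such bulk tissue, more cells expressing a gene and more RNA of it per cell cannot be told apart.

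On the log2(scaled CPM + 0.5) scale, which understates changes of low genes, the differences from the control were 1.28 at 5 h, 2.24 at 24 h and 3.71 at 48 h of salt. They were 1.08, 0.67 and −0.32 under heat and 0.21, 0.23 and 1.17 under drought. No test is given for these values or for the course within salt, since the gene was chosen for that pattern. From 5 h to 48 h of salt the difference was 2.43, of which 0.96 lay between 5 h and 24 h and 1.47 between 24 h and 48 h. Without replicate 2 of salt at 24 h these steps were 0.54 and 1.89, and without replicate 1 they were 1.33 and 1.10, so the split between the steps rested on which replicate of that group was counted.

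The libraries of salt at 48 h had been scaled upwards, so that their values sum to between 1207464 and 1273638, against 845077 to 858082 in the control. With every library scaled to 1000000 reads instead, the difference of LsERF073 between salt at 48 h and the control was 3.23, and the median of all tested genes moved from −0.01 to −0.51. Scaling moves all genes of a library alike, so the distance of LsERF073 from the median gene stayed nearly the same by construction.

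Whether the stresses differed from each other was asked directly at each hour, with limma over all 23231 tested genes, and a gene was called when the adjusted p was at most 0.01 and the log2 difference at least 1 in size. The gene was chosen for its late salt values, so the contrasts with salt at 24 h and 48 h are given as differences with no test. Those with salt at 5 h are tested, though they are not wholly independent of that choice. Those between heat and drought use no salt and no control library. The study had named LsERF073 as raised by heat and by drought too, so these tests are not wholly independent of known results either. The p-values set each difference against a single spread between the replicates of these plants, estimated for a gene over all groups of a table. The groups compared may themselves have varied more or less than that.

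At 5 h, salt and heat did not differ beyond the spread of the replicates. The log2 difference of salt minus heat was 0.20 (95% interval −0.34 to 0.73), with an adjusted p of 0.530 by limma, where 13.3% of all tested genes were called in either direction. LsERF073 was higher under salt than under drought by 1.08 (0.54 to 1.61; adjusted p = 0.0029 by limma), a call made for 4.12% of genes. This call was close to both limits, and it was kept in 2 of the 6 fits that left out a library. It was lost without replicate 1 (0.98) or 2 (1.07) of drought and without replicate 1 (0.99) or 3 (1.05) of salt, and adjusted p-values by limma or edgeR reached 0.0189 over all alternatives. Heat minus drought was 0.88 (0.34 to 1.41; adjusted p = 0.0075 by limma) and was not called, as the difference was below 1, while 7.16% of genes were. Without replicate 2 of heat at 5 h, the lowest of its group, that difference was 1.09 and was called, and salt minus heat was −0.01.

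At 24 h, salt minus heat was 1.57 (95% interval 1.03 to 2.11) and salt minus drought 2.01 (1.47 to 2.55). All 3 salt libraries were above all libraries of the other stresses. Salt moved much of the transcriptome at this hour, and 24.6% of genes were called against heat and 28.8% against drought. Heat minus drought was 0.44 (95% interval −0.10 to 0.98; adjusted p = 0.169 by limma), and 8.5% of genes were called in that contrast.

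At 48 h the differences were larger. Salt minus heat was 4.03 (95% interval 3.49 to 4.56), or 16.3-fold on this scale, and salt minus drought 2.54 (2.00 to 3.07), or 5.81-fold. Of all genes, 41% were called in the first contrast and 40.4% in the second. Of all tested genes, 97.2% had a lower difference of salt minus heat and 93.2% a lower difference of salt minus drought. The gene was chosen for its late salt values, so this high place goes back to that choice.

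Heat and drought also differed at 48 h, and here no salt library was involved. The level under heat was between 0.854 and 0.914, and under drought between 2.62 and 4.19, with no overlap. Heat minus drought was −1.49 (95% interval −2.03 to −0.95; adjusted p = 4.6e-05 by limma), and the call was lower, a call in either direction being made for 10.6% of genes. Only 2.41% of tested genes had a more negative difference. The call was kept in 13 of 14 alternatives, and was lost with a pseudocount of 2, where the difference was −0.90.

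**Figure D2:**
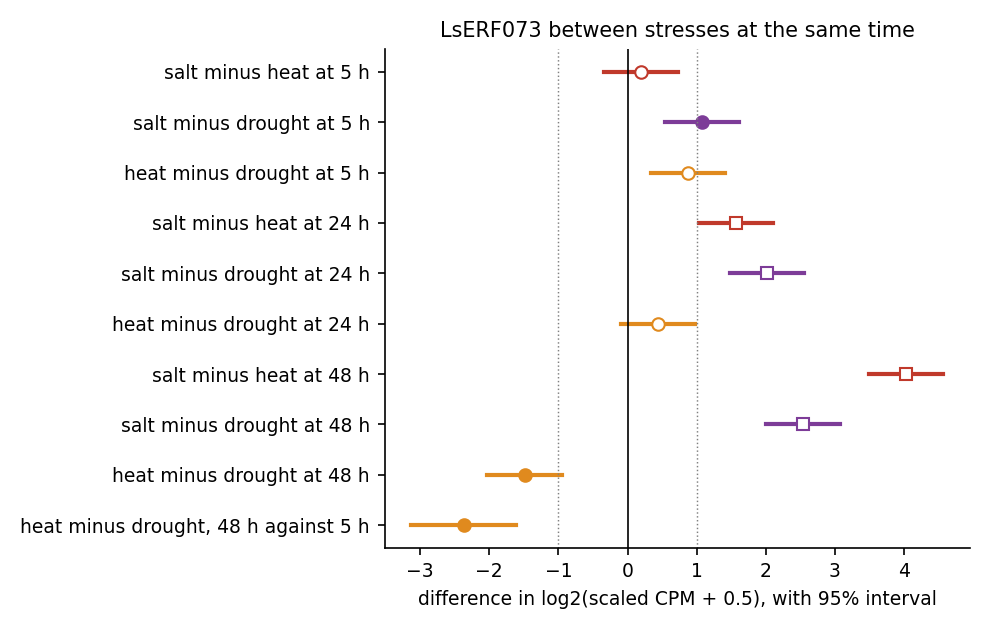
Differences of LsERF073 between stresses at the same hour, on the log2(scaled CPM + 0.5) scale, with 95% intervals from limma and 3 libraries per group. Circles were tested and filled ones called, squares are given with no test, and dotted lines mark a difference of 1 in size. Salt minus heat moved from 0.20 at 5 h to 4.03 at 48 h, and heat minus drought from 0.88 to −1.49.

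The courses under heat and drought ran in opposite directions. From 5 h to 48 h LsERF073 fell under heat by 1.40 on the log2 scale (SE 0.26; adjusted p = 0.00013 by limma), where 7.39% of genes were called. Under drought the difference between the same hours was 0.97 (SE 0.26; adjusted p = 0.0065 by limma), not called, since it was below 1, with 3.2% of genes called. It was called without replicate 1 of drought at 48 h, at 1.12, and by edgeR, at 1.21. The change in heat minus drought from 5 h to 48 h was itself tested, and it was −2.37 (95% interval −3.13 to −1.61; adjusted p = 4.0e-05 by limma). This contrast was called lower for LsERF073 in all 20 alternatives run, with values from −3.06 to −1.47, and 7.64% of all genes were called in it.

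The single steps of these courses were smaller. Under heat the step from 5 h to 24 h was −0.41 (adjusted p = 0.232 by limma) and that from 24 h to 48 h −0.99 (adjusted p = 0.0297). Under drought they were 0.02 (adjusted p = 0.974 by limma) and 0.94 (adjusted p = 0.0339). None of these 4 steps was called, and calls in them were rare among all genes except for the first step of heat: 5.95% and 0.448% under heat, and 0.405% and 0.792% under drought.

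Of the 13 lettuce genes of DREB group IV, 4 were listed and tested in Salinas: LsERF073, LsERF069, LsERF077 and LsERF075. LsERF069 passed the filter on low values through its salt libraries alone, and LsERF073 was chosen for late salt, so no count or median over the 4 is given for salt. Heat minus drought at 48 h was called for LsERF073, and for neither LsERF077 nor LsERF075 by limma or edgeR. LsERF069 had 0 reads in every library of heat and of drought at 48 h, so no call was possible for it.

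LsERF069, on linkage group 5 from 54559269 to 54560012 on the plus strand, has DREB2D as its closest Arabidopsis protein in the annotation of the study. It had 0 reads in every library of the control and of salt at 5 h, and no more than 2 reads in any library of heat or drought. At 24 h of salt it was at 0.222, 8.55 and 3.58 scaled CPM, and at 48 h at 33.4, 71.2 and 31.7. Against a floor of 3 reads per library, the mean of LsERF069 at 48 h of salt was at least 417-fold higher than under heat and at least 434-fold higher than under drought. LsERF073, in contrast, had reads in every library of the study.

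LsERF077, on linkage group 9 from 76654006 to 76654974 on the minus strand, has DREB2C as its closest Arabidopsis protein in that annotation. Control plants had 2.19 ± 0.549 scaled CPM of it (SD, n = 3), and the libraries of salt at 48 h had 155.7, 235.4 and 167.1. LsERF077 was higher under salt than under heat by 1.38 at 5 h (adjusted p = 0.0068 by limma), by 4.58 at 24 h and by 7.42 at 48 h (adjusted p = 7.6e-10 and 2.7e-14). The call at 5 h was not made by edgeR. At 48 h salt minus heat was thus 7.42 for LsERF077 and 4.03 for LsERF073. Heat minus drought at 48 h was −0.81 for LsERF077 (adjusted p = 0.112 by limma), and the change of that contrast from 5 h was −0.37 (SE 0.59; adjusted p = 0.695), where LsERF073 had −2.37. Whether these values differ between the genes was not tested.

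LsERF075, on linkage group 9 from 31763932 to 31764765 on the minus strand and closest to DREB2F of Arabidopsis, took the other direction. Its mean was 1.40 ± 0.610 scaled CPM in control plants and 0.158 ± 0.099 after 48 h of salt (SD, n = 3), where 1 to 5 reads per library were counted. Salt minus drought at 48 h was −1.15 for LsERF075 (adjusted p = 0.00041 by limma) and was called lower. Salt minus heat was −0.59 (adjusted p = 0.048 by limma) and was not. With a pseudocount of 2 the first call was lost.

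Per kb of exon, the mean levels at 48 h of salt were 192.0 ± 44.5 scaled CPM for LsERF077, 61.1 ± 29.96 for LsERF069, 27.4 ± 3.49 for LsERF073 and 0.190 ± 0.119 for LsERF075 (SD, n = 3). In the control they were 2.26 ± 0.566 for LsERF077, 1.68 ± 0.731 for LsERF075 and 1.55 ± 0.521 for LsERF073, with LsERF069 at 0. LsERF073 thus stood within the spread of LsERF075 in control plants, and between LsERF069 and LsERF075 at 48 h of salt.

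The 3 replicates of salt at 24 h kept the same order for LsERF073, LsERF069 and LsERF077, with replicate 2 the highest and replicate 1 the lowest. The sums of the scaled libraries had that order too, at 970032, 1049578 and 1025781 for replicates 1, 2 and 3. The part of such library differences in the spread of LsERF073 at 24 h was not tested.

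Of the 78 DREB genes, 50 were listed and 46 tested in Salinas, some of which may have passed the filter through a single stress, so their counts are a description. In salt minus heat at 48 h, 15 of the 46 (32.6%) were called higher and 10 (21.7%) lower, beside 19.8% and 21.2% of all tested genes. In heat minus drought at 48 h, 1 (2.17%) was called higher and 6 (13%) lower, beside 4.06% and 6.51% of all genes. In its change from 5 h, 4 (8.7%) were called higher and 8 (17.4%) lower, beside 2.13% and 5.51%. In salt minus heat at 48 h LsERF073 had the 6th highest difference of the 46, a place that goes back to its choice for late salt. In heat minus drought at 48 h it had the 3rd lowest, after LsERF056 (−2.41) and next to LsERF009 (−1.49), both named here after their values were seen. Of the 24 tested genes of group III, which holds the CBF/DREB1 relatives, 3 (12.5%) were called higher and 10 (41.7%) lower in salt minus heat at 48 h, beside the same 19.8% and 21.2%. Whether the group differs from other genes was not tested.

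In the cold, LsERF073 was measured in plain CPM in the other cultivars. The late salt values behind its choice did not come from these libraries. The study had also named the gene as raised by cold, with cold data from another series. The cold tests are therefore not wholly independent of known results. In PI284702 it was at 1.32 and 1.24 at 0 h, at 4.36, 3.75 and 7.00 after 4 h, at 4.06, 3.92 and 4.40 after 24 h, and at 2.63, 3.08 and 2.25 after 7 d at 4 °C. In UC96US23 it was at 1.00, 1.04 and 1.20 at 0 h, at 5.00, 4.41 and 4.43 after 4 h, at 5.31, 3.42 and 5.63 after 24 h, and at 2.99, 2.67 and 3.62 after 7 d. Every cold library was above every library of its cultivar at 0 h, and the levels at 7 d lay between those at 0 h and most of those at 4 h and 24 h.

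**Figure D3:**
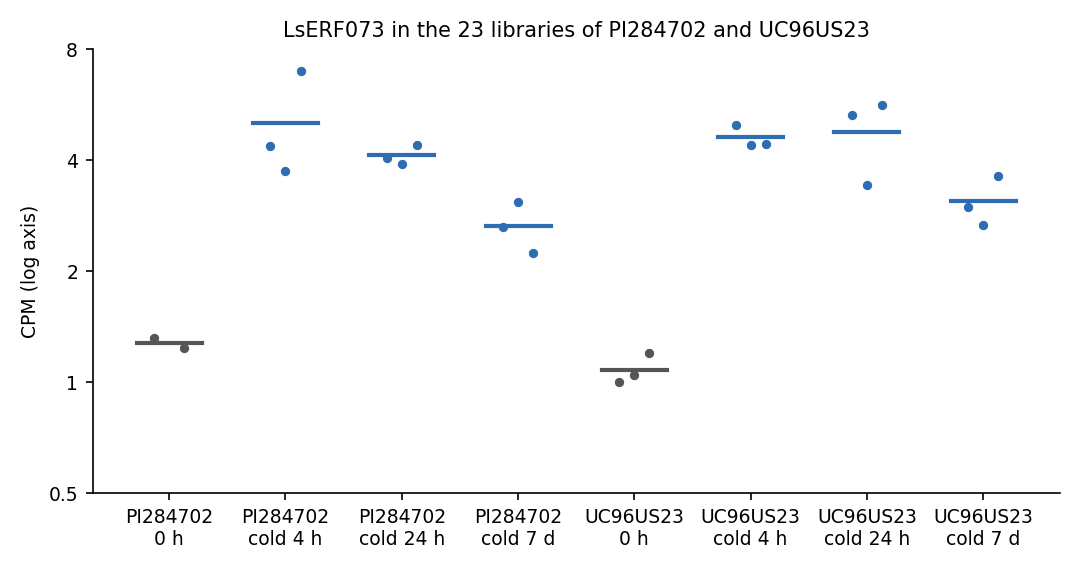
Level of LsERF073 in each of the 23 libraries of PI284702 and UC96US23, in CPM on a log axis, with a bar at the group mean. Libraries at 0 h sat between 1.00 and 1.32 and cold libraries between 2.25 and 7.00.

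LsERF073 rose in the cold in both cultivars. In PI284702 it rose by 1.60 on the log2(CPM + 0.5) scale after 4 h (SE 0.22; adjusted p = 1.3e-05 by limma) and by 1.38 after 24 h (SE 0.22; adjusted p = 2.9e-05), or 3.02-fold and 2.60-fold. After 7 d the difference was 0.82 (SE 0.22; adjusted p = 0.0040 by limma), not called because it was below 1. Of all 23443 tested genes, 4.11%, 9.73% and 9.9% were called at these times. In UC96US23 it rose by 1.69 after 4 h (SE 0.19; adjusted p = 8.0e-07 by limma), by 1.71 after 24 h (adjusted p = 2.3e-07) and by 1.18 after 7 d (adjusted p = 3.4e-05), where 6.63%, 12.2% and 9.07% of genes were called.

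From 24 h to 7 d the difference was −0.56 in PI284702 (adjusted p = 0.0259 by limma) and −0.54 in UC96US23 (adjusted p = 0.0320), and neither was called. From 4 h to 24 h it was −0.22 in PI284702 (95% interval −0.62 to 0.19; adjusted p = 0.417 by limma) and 0.02 in UC96US23 (−0.38 to 0.43; adjusted p = 0.960). Calls in these contrasts were made for 5% and 4.96% of genes from 24 h to 7 d and for 6.86% and 9.33% from 4 h to 24 h. The median of all genes was itself shifted by 0.15 at 7 d against 0 h in PI284702 and by 0.13 from 24 h to 7 d in both cultivars, and no such shift exceeded 0.1 at 4 h or 24 h against 0 h. At 7 d against 0 h, limma called 1408 genes higher and 912 lower in PI284702, and edgeR with its own scaling 997 and 1514.

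The cultivars did not differ in LsERF073 beyond the spread of the replicates. At 0 h UC96US23 minus PI284702 was −0.17 (95% interval −0.62 to 0.28; adjusted p = 0.616 by limma), where 9.9% of genes were called, although the 3 libraries of UC96US23 were all below the 2 of PI284702. The difference in response between the cultivars was 0.10 at 4 h (−0.51 to 0.70; adjusted p = 0.894 by limma), 0.34 at 24 h (−0.27 to 0.94; adjusted p = 0.619) and 0.36 at 7 d (−0.25 to 0.97; adjusted p = 0.602). The intervals leave room for a difference of nearly 1 in favour of UC96US23 at 24 h and 7 d. Only 0.137%, 0.661% and 0.674% of genes were called in these tests.

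Of group IV, LsERF075 and LsERF077 were the other genes tested in the cold. LsERF073 was called higher at 2 of the 3 times in PI284702 and at all 3 in UC96US23, whereas LsERF075 and LsERF077 were called at none by limma or edgeR, with differences from 0 h between −0.13 and 0.53 for LsERF075 and between −0.32 and 0.57 for LsERF077. The difference between the genes was not tested. Among the 43 tested DREB genes, 16 (37.2%) were called at 4 h in PI284702, all of them higher, where 3.41% of all genes were called higher and 0.704% lower. In UC96US23, 19 (44.2%) were called higher and 2 (4.65%) lower, beside 4.3% and 2.33% of all genes. Of the higher calls, 12 and 13 were among the 25 tested genes of group III. LsERF073 had the 12th, 9th and 10th highest response of the 43 at 4 h, 24 h and 7 d in PI284702, and the 10th, 4th and 5th highest in UC96US23.

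**Figure D4:**
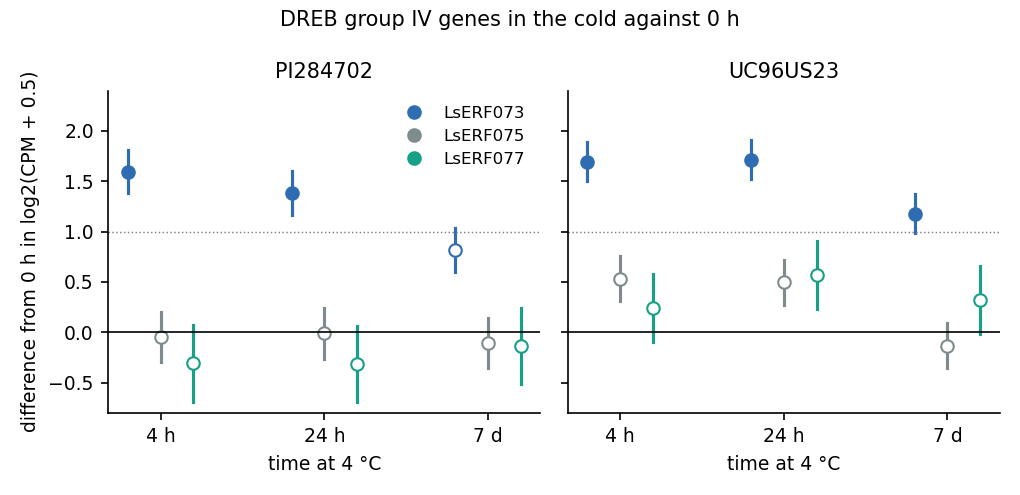
Differences from 0 h of the 3 DREB group IV genes tested in the cold, on the log2(CPM + 0.5) scale, with bars of 1 SE from limma, filled points for calls and a dotted line at a difference of 1. LsERF073 lay between 0.82 and 1.71 in both cultivars, and the other genes stayed below 0.57.

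The tables were normalised separately, so levels of Salinas and of the other cultivars are set side by side with no test. At 0 h LsERF073 was at 1.25 ± 0.420 scaled CPM in Salinas, and at 1.28 ± 0.055 CPM in PI284702 (n = 2) and 1.08 ± 0.104 CPM in UC96US23. The means in the cold were between 2.65 and 5.04 CPM, beside Salinas means of 3.71 in salt at 5 h, 3.22 in heat at 5 h and 3.43 in drought at 48 h, and of 22.1 in salt at 48 h.

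The family genes with a pattern most like that of LsERF073 were sought in each table. Over the 30 Salinas libraries, which share the salt groups, the highest Pearson correlations of log2 values were those of LsERF120 (0.942) and LsERF128 (0.916), both of ERF group VIII, and of LsERF077 (0.903). Among all 23230 other tested genes these ranked 14th, 128th and 332nd, so genes outside the family stood higher. LsERF120 was at 19.1 ± 0.261 scaled CPM in the control and 53.2 ± 3.52 at 48 h of salt, and LsERF128 at 28.5 ± 1.08 and 68.3 ± 7.46. Over the 23 cold libraries, LsERF120 correlated with LsERF073 at 0.09, LsERF128 at −0.42 and LsERF077 at 0.11. By Spearman rank correlation the highest in Salinas were instead LsERF009 (0.849), LsERF004 (0.837) and LsERF057 (0.797), named after their values were seen, and LsERF009 also had a Pearson correlation of 0.756 in the cold. Group VIII in Arabidopsis includes ERF proteins that act as repressors.

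Over the cold libraries the highest correlations within the family were those of LsERF062 (0.921) and LsERF063 (0.882), CBF/DREB1 relatives of group III, and of LsERF100 (0.904), of ERF group VI. Among all 23442 other tested genes these ranked 18th, 80th and 40th. LsERF062 was at 2.20 ± 0.117 CPM at 0 h and 94.9 ± 9.75 after 4 h in PI284702. It lies in a cluster of similar genes with LsERF063, between which reads could be divided uncertainly. In Salinas the correlations with LsERF073 were −0.27 for LsERF062 and −0.63 for LsERF100, and LsERF063 was not tested there. LsERF062 had no reads at 48 h of salt, where LsERF073 was at its highest. The 3 family genes with the highest Pearson correlation over all Salinas libraries and the 3 over the cold libraries had no gene in common. Unrelated lists this short would rarely share a gene, and LsERF063 could not be shared, so no conclusion is drawn from this.

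Of all 22143 genes tested in both tables, those with the highest correlation in both were Lsat_1_v5_gn_3_65860.1 (0.925 in Salinas and 0.926 in the cold) and Lsat_1_v5_gn_1_124861.1 (0.964 and 0.919). The latter was at 2.504 ± 0.761 scaled CPM in the control, 31.4 ± 4.58 at 48 h of salt and 0.962 ± 0.080 at 48 h of heat. In PI284702, Lsat_1_v5_gn_1_124861.1 was at 4.03 CPM at 0 h and 132.9 after 4 h of cold. These correlations are over libraries that share treatment groups, and they are given as a description.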

How the data were processed

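Reads were aligned by the authors with STAR 2.5.2 to the lettuce genome version 8 and counted per gene with featureCounts, and edgeR is named in the submitters' processing notes. Whether counting used strand is not given in the sources used here. For Salinas the authors deposited a signal per gene: CPM after each library size had been multiplied by its own factor. How that factor was made is not given in the sources used here. The design had assumed plain CPM, and its test was kept. The deposited values of the other cultivars are plain CPM, with a sum of 1000000 per library. Replicates were deposited singly, and groups came from the sample labels.

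Throughout, 100% of the values were whole numbers of reads, within 0.1 read, once divided by the value of a single read, which gave 19144717 to 29521313 reads per library in Salinas (median 23710564) and 17570370 to 27896716 in the other cultivars (median 20158172). A read was worth 0.0300 to 0.0619 scaled CPM and 0.0358 to 0.0569 CPM. A floor of 3 reads was used for genes at 0, and it covers counting error only.

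A gene entered the tests when 2 libraries of its table reached 0.5 (23231 genes in Salinas and 23443 in the cold). limma 3.58.1 (R 4.3.3; lmFit, contrasts.fit, eBayes with trend) was run on log2(value + 0.5), all groups of a table together, with Benjamini-Hochberg adjustment over all tested genes within each contrast. Calls needed an adjusted p of at most 0.01 and a log2 difference of at least 1 in size. The same fits were tested on simulated data. edgeR 4.0.16 (quasi-likelihood test, TMM) was run on the recovered reads as an alternative, and it called 4642 genes higher and 5865 lower for salt minus heat at 48 h, where limma called 4594 and 4920. Other alternatives were pseudocounts of 0.1 and 2, no filter, centring on the median gene, 1000000 reads per library, only the groups compared, a replicate block and leaving out each library. Python 3.11.15 with pandas 2.3.3, numpy 2.4.6 and matplotlib 3.10.9 was used for the rest.

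Groups I to IV of DREB and the positions are those of the supplementary gene list of the study (224 AP2/ERF genes, of which 78 are DREB). The genes named are LsERF073, the tested genes of group IV, the 3 family genes most correlated with it in each table, and the 2 other genes most correlated in both. Where the text names a further gene, it was picked with its values in view. The gene, the lists and the tests were chosen with earlier results of these data known. Gene IDs matched no entry of the reference table given, so no sequence is printed.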

Additional observations from a re-analysis of the deposited data

Results flagged for a closer look

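The course of LsERF073 differed between heat and drought in Salinas. The change of heat minus drought from 5 h to 48 h was −2.37 on the log2(scaled CPM + 0.5) scale (adjusted p = 4.0e-05 by limma, 3 libraries per group). The study had reported a rise of the gene under both stresses, so this test is not wholly independent of known results. Within heat, the change from 5 h to 48 h was −1.40, and all 3 libraries at 48 h lay below all 3 at 5 h. Groups held 2 or 3 libraries, too few to ask whether a single library stands apart.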

How the results depend on the processing

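Most values were kept under the alternatives. A value with a test was kept when its direction and its side of the threshold stayed. The contrasts with salt at 24 h and 48 h are given above with no test. They were still counted here among the values with a test, so their being kept is no support. A value without a test was kept when it moved by less than the replicate spread. Apart from leaving out libraries, 204 of the Salinas values and 96 of the cold values were kept. Of those without a test, 11 moved by more than the replicate spread. Of those with a test, 5 passed and 6 missed the threshold newly. With a pseudocount of 2, salt minus drought at 5 h was 0.71, heat minus drought at 48 h −0.90, heat at 48 h minus 5 h −0.84, and cold minus 0 h 0.90 at 24 h in PI284702 and 0.72 at 7 d in UC96US23, none called. Against the control it gave 0.82, 1.59 and 2.89 for salt, 0.68 for heat at 5 h and 0.74 for drought at 48 h. With a pseudocount of 0.1, heat minus drought at 5 h was 1.03 and called, and salt at 48 h minus control was 4.08. edgeR gave 1.10, called, for heat minus drought at 5 h, 2.72 and 4.08 for salt at 24 h and 48 h minus control, and 1.21, called, for drought at 48 h minus 5 h, which was 1.13 with a pseudocount of 0.1 and 1.01 with 1000000 reads per library. That scaling gave 3.23 for salt at 48 h minus control. With only the compared groups, salt minus heat at 24 h was 1.57 and missed the threshold, which is a description for a contrast given with no test. The cause of these changes was not tested. A pseudocount of 2 lowers every difference of a gene at about 1 CPM by construction.

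Leaving out each library gave −0.01 to 0.32 for salt minus heat at 5 h, 0.98 to 1.19 for salt minus drought and 0.76 to 1.09 for heat minus drought at 5 h, 1.82 to 2.61 for salt at 24 h minus control, and 0.83 to 1.12 for drought at 48 h minus 5 h. Signs turned for values near 0: drought at 24 h minus 5 h was −0.07 to 0.12, cold at 24 h minus 4 h −0.39 to 0.02 in PI284702 and −0.10 to 0.22 in UC96US23, and the difference between the cultivars at 4 h −0.07 to 0.34.

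Replicate numbers were not treated as pairing the samples, since no label says that a number marks a shared block, although the methods of the study mention a randomized block design. Deviations of samples with the same number correlated between −0.28 and 0.32 in Salinas (median −0.01 over 135 pairs) and between −0.20 and 0.22 in the cold table (median 0.03 over 77), and 5 of 30 and 15 of 23 libraries correlated best with their own number, which for the cold table hints that samples of a number may share something. The replicate block changed no call of LsERF073: heat minus drought at 48 h was −1.49 (adjusted p = 7e-05 by limma with the block) and its change from 5 h −2.37. With 21 to 41 reads in the control, counting error limits small differences of LsERF073 from it.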
